A study of Homo sapiens with 30 samples.

Results

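The T-47D time course with bone morphogenetic protein 7 (BMP7) consisted of 6 of the 30 arrays in the series, selected by their cell line label. T-47D is an established human breast cancer line with estrogen and progesterone receptors. The 6 treatment times with recombinant human BMP7 protein were 30 min and 1 h, then 3 h and 6 h, then 12 h and 24 h, each with its own vehicle control, and RNA came from pools of replicate cultures. Each time point was therefore 1 two-colour array, with the RNA of BMP7-treated cells in Cy5 and the RNA of time-matched vehicle-treated cells in Cy3. The other 24 arrays held the same 6 time points of HCC1954, MDA-MB-231, MDA-MB-361 and ZR-75-30 cells. Dyes were not swapped, so a dye effect that was constant for a probe cancelled in a difference between time points but not in a single ratio. The 4 arrays from 3 h to 24 h, called late here, were set against the 2 arrays at 30 min and 1 h, called early, to ask which transcripts followed the first hour of BMP7 treatment. These arrays are different times and not replicates, so a p-value measured the spread between arrays, with change over time inside it.

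BMPs bind type I and type II serine/threonine kinase receptors, which phosphorylate SMAD1, SMAD5 and SMAD9. These join SMAD4 and activate target genes in the nucleus, among them the ID genes, which encode inhibitors of basic helix-loop-helix factors, and SMAD6 and SMAD7, which inhibit the pathway in return. In breast cancer cells BMP7 is known for effects on growth and migration that differ between cell lines.

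The starts of 4 genes whose late values lay above the early ones, ID1, ID3, SMAD6 and GATA2, and of ID2, are shown because SMAD complexes are known to bind short sequences near such targets. Each line gives the 250 bases before a RefSeq transcript start, 5′ to 3′ on the gene's strand, in GRCh38.p14. Capitals mark GGCGCC, which BMP SMADs can bind, and GTCT or its reverse complement AGAC, the core of the SMAD-binding element, whose palindrome GTCTAGAC holds both.
ID1, chr20:31605039-31605288, plus strand: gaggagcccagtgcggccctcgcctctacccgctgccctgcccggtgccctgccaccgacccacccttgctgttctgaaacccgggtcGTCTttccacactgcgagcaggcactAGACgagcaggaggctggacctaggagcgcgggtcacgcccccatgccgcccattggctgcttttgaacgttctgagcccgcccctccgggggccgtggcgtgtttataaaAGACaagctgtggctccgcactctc
ID2, chr2:8681806-8682055, plus strand: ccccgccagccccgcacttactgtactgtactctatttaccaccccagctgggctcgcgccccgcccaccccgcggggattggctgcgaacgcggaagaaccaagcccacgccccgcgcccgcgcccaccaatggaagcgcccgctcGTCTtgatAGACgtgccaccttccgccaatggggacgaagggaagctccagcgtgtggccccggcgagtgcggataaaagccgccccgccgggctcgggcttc
ID3, chr1:23559502-23559751, minus strand: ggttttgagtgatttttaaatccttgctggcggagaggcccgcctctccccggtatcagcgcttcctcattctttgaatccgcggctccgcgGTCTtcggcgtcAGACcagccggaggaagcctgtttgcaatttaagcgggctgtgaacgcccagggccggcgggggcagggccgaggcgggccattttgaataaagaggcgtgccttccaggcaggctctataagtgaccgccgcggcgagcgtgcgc
SMAD6, chr15:66701986-66702235, plus strand: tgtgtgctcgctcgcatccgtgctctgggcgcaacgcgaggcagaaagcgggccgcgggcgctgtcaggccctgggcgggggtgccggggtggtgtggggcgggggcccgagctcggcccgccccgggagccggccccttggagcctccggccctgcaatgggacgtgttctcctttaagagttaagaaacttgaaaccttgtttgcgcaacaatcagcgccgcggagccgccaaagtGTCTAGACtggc
GATA2 first start, chr3:128493202-128493451, minus strand: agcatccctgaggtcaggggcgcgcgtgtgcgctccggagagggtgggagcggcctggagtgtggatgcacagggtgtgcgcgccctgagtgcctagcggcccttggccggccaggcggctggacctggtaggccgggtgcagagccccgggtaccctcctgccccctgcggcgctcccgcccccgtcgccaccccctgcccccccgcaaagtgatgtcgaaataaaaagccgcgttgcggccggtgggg
GATA2 second start, chr3:128488531-128488780, minus strand: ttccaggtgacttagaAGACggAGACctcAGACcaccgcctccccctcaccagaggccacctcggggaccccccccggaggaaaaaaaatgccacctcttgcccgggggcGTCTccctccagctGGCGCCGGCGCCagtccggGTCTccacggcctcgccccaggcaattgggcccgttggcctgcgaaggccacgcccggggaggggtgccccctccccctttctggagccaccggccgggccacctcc
The GRCh38.p14 window of SMAD6 held GTCTAGAC from 12 to 5 bases before the start, a sequence present in 0.182% of 35116 promoters of this length, and it held no other GTCT or AGAC. GATA2 had no match before its first start and, before its second, a pair of adjacent GGCGCC and 5 cores. GGCGCC was present in 16.4% of all promoters and GTCT or AGAC in 77.5%, so the cores before ID1 (3), ID2 (2) and ID3 (2) were ordinary for a window of this length. The letters say nothing of binding in these cells.

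Values below are log2 BMP7/vehicle, where 1 is a 2-fold higher and -1 a 2-fold lower signal in BMP7-treated cells. A probe entered the tests when both channels were well above background on at least 4 of the 6 arrays, which left 24404 of 41000 probes and 12597 named genes, each represented by its probe with the brightest vehicle signal. Between 53.8% (3 h) and 64.0% (6 h) of probes were well above background in both channels. All 11 luminal markers, among them ESR1, PGR, GATA3, FOXA1 and KRT19, were above background in vehicle-treated cells on all 6 arrays, as were ERBB2 and GRB7. Of markers of other cells, 6 of 9 fibroblast genes, 3 of 9 leukocyte genes and 3 of 10 basal or mesenchymal genes were above background on no array. PTPRC, CD3D, COL1A2, COL3A1, DCN, KRT5 and MSN were among these.

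The arrays at 3 h and 24 h stood apart in the vehicle-treated cells themselves. Their vehicle levels correlated across probes at r = 0.980 with each other and at 0.919 to 0.953 with the other 4 arrays, which correlated among themselves at 0.982 to 0.994. Of those 4, the 1 h array was nearest to them, at 0.941 with 3 h and 0.953 with 24 h. Vehicle levels of the B cell gene CD79A and of THY1, a surface glycoprotein of fibroblasts and neurons, were 3.35 and 2.43 higher (log2) at 3 h and 24 h than at 30 min, 6 h and 12 h. Over the markers past the filter, the median of this vehicle difference was 2.16 for 5 leukocyte and 1.57 for 2 fibroblast genes, and its part in the changes below was not tested. The 30 min and 1 h arrays shared a slide, as did the 6 h, 12 h and 24 h arrays, and the 3 h array lay alone on a slide of another scan batch. Each slide held early or late arrays only, so a slide effect cannot be told apart from the late against early change. Slide was also fitted as a random block, which does not separate them, and no probe was called for late against early. The log2 ratios grouped differently. They correlated at 0.606 between 30 min and 1 h, at 0.738 between 6 h and 12 h and at 0.542 between 12 h and 24 h, while the 3 h ratios correlated with those at 6 h and 12 h at 0.037 and -0.035. Results below are given with the 3 h and 24 h arrays and, where it matters, without them.

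**Figure D1:**
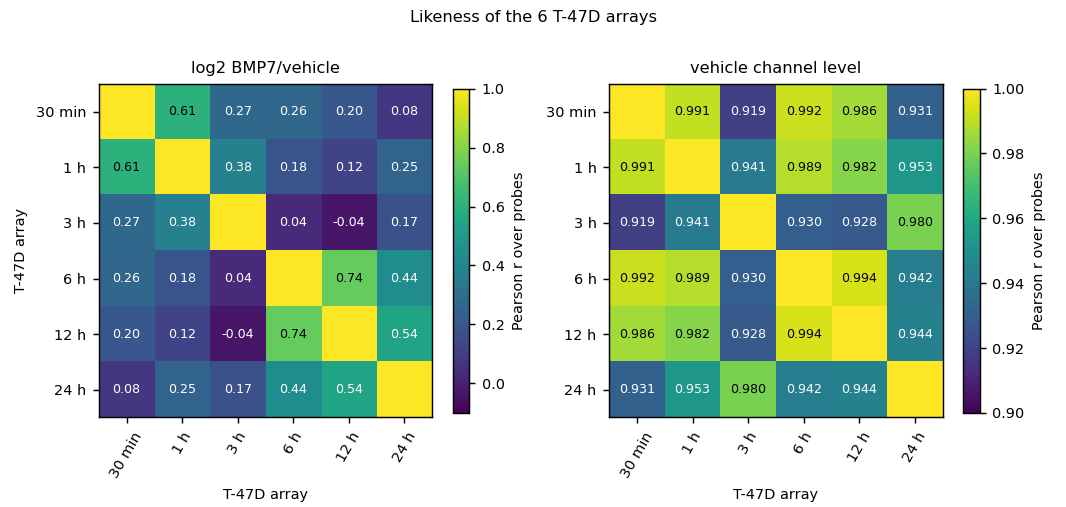
Pearson correlation across probes between the 6 T-47D arrays, for log2 BMP7/vehicle (left) and for the level in the vehicle channel (right), with the array times on both axes and r by colour and number. The vehicle levels at 3 h and 24 h resemble each other (0.980) more than the rest, while the ratios pair 30 min with 1 h (0.606) and 6 h with 12 h (0.738).

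In bulk RNA such as this, fewer cells of a type and less RNA per cell cannot be told apart. Few probes passed the 2-fold threshold on any T-47D array. At 30 min, 28 probes were at least 2-fold higher (0.115%) and 236 at least 2-fold lower (0.967%) with BMP7. The 1 h array held 197 higher (0.808%) and 487 lower (2.0%), and the 3 h array 304 (1.25%) and 170 (0.697%). At 6 h only 2 (0.0082%) and 31 (0.127%) were past 2-fold, fewest of the 6 arrays. At 12 h there were 48 (0.197%) and 138 (0.566%) and at 24 h 359 (1.47%) and 306 (1.25%), more higher ones than on any other array. The lower probes of the first hour were largely the same: 228 of the 236 at 30 min were also 2-fold lower at 1 h, where they made up 46.8% of such probes. None of the 236 was 2-fold lower at 3 h, and 6 were at 24 h. With local background correction (normexp, offset 50) and loess, the share of probes past 2-fold either way went from 1.94% to 0.041% at 3 h, from 2.73% to 0.431% at 24 h and from 2.81% to 1.76% at 1 h. After the same background correction with median scaling it was 0.783% at 3 h, 1.05% at 24 h and 3.86% at 1 h. From 12 h to 24 h, 63 of 138 lower probes (45.7%) stayed past 2-fold, which was 20.6% of those at 24 h.

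No probe passed an adjusted p of 0.05 in limma for late against early (0% called, lowest adjusted p 0.2145), for 24 h against early (lowest 0.0888), for 3 h to 12 h against early (0.3605) or for 24 h against 3 h to 12 h (0.1661). At an unadjusted limma p under 0.05, 1633 probes had higher (6.69%) and 1029 lower late values (4.22%). At the same unadjusted threshold 3411 probes passed for 24 h against early (8.47% upward, 5.52% downward), 2204 for 3 h to 12 h against early (5.07% and 3.96%) and 1868 for 24 h against 3 h to 12 h (4.01% and 3.64%). Without the 3 h array, 1149 probes passed the adjusted threshold for 24 h against early, 803 upward and 346 downward, and without the 12 h array 54 did. For 24 h against 3 h to 12 h, 33 passed without the 3 h array and 38 with slide as a random block. The 4 late values all lay above both early values for 1414 of 12555 genes with all values (11.3%) and all below for 1177 (9.37%), and these percentages are the background for every list below. When the spread was estimated over all 30 arrays of the 5 lines, limma called 350 probes for the late against early change in T-47D, 253 higher (1.04%) and 97 lower (0.398%). This count was 13 without the 1 h array, 2 without the 24 h array, 2274 without the 3 h array and 853 without both the 3 h and 24 h arrays. It was 1 after background correction with scaling to the median in place of the dye normalization of the scanner software.

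Of 35 BMP target genes on the array, 31 passed the filter. Late values lay wholly above early ones for 9 (ID1, ID3, SMAD6, SMAD9, HEY1, DLX3, GATA2, GATA3 and SMURF2) and wholly below for 2 (GATA6 and TGIF1), against backgrounds of 11.3% and 9.37%. Their median late minus early change was 0.02, beside 0.01 for all genes, so the list as a whole did not lie above the rest. Without the 3 h and 24 h arrays, 10 of 31 lay above and 6 below, beside 30.2% and 29.3% of all probes. With local background correction and loess the counts were 6 and 2, beside 14.0% and 11.6% of all genes, and with median scaling 3 and 1, beside 5.97% and 2.11%. Unadjusted limma p was under 0.05 for 8 of the 31, all higher, beside 6.22% of all genes upward and 3.86% downward.

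ID1 (probe at chr20:29657819-29657878, hg18) stood at 0.08 and 0.22 at 30 min and 1 h and at 0.69, 0.29, 0.58 and 0.84 on the later arrays in order of time. All 4 late arrays lay above the early ones, by little at 6 h. The change was 0.45 (SE 0.18, n = 2 and 4 arrays, limma adjusted p = 0.434), and on arrays scaled to the median it was 0.12 with overlap. Its vehicle level, relative to the 75th percentile of each array, was 5.55, 5.51, 5.24, 5.43, 5.29 and 4.95 in order of time, and its level with BMP7 was 5.62, 5.75, 5.93, 5.73, 5.87 and 5.76. The level with BMP7 thus stayed between 5.62 and 5.93, while the vehicle level was lowest at 24 h.

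ID2 gave 0.15 and 0.45 in the first hour and 1.06, 0.77, 0.39 and 0.73 afterwards. Its 3 h value was the highest and its 12 h value overlapped the early ones (change 0.44, SE 0.21, limma adjusted p = 0.478). Without the 30 min array the change was 0.29. A second ID2 probe gave a change of 0.03. ID3 was at -0.12 and -0.25 early and at 0.25, 0.41, 0.24 and 0.18 late, so it was below 0 in the first hour and above 0 on all 4 late arrays (change 0.45, SE 0.15, limma adjusted p = 0.368). Local background correction with loess gave 0.42 for ID3, and median scaling 0.34 with overlap. ID4 gave 0.20 and 0.10 early and 0.25, -0.01, 0.01 and 0.02 late, with overlap and a change of -0.08.

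The inhibitory SMADs differed from each other. SMAD6 was at -0.16 and 0.07 early and at 0.36, 0.40, 0.77 and 0.15 late, highest at 12 h (change 0.46, SE 0.20). The groups did not overlap, but with loess the SMAD6 change was 0.06 with overlap. SMAD7 was highest at 1 h (0.62) and stood at 0.13 at 30 min and at 0.12, 0.19, 0.26 and 0.09 late, and its change of -0.21 became 0.04 without the 1 h array. SMAD9, a receptor-activated SMAD and itself a BMP target, gave -0.08 and -0.89 early and 0.12, 0.23, 0.14 and 0.14 late. Its 4 late values were close together, and the change of 0.64 (SE 0.22) was 0.23 without the 1 h array. BAMBI, a decoy receptor, gave -0.04, 0.21, 0.34, -0.01, -0.03 and 0.12 in order of time with a change of 0.02, which was negative with loess (-0.07) and median scaling (-0.30).

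**Figure D2:**
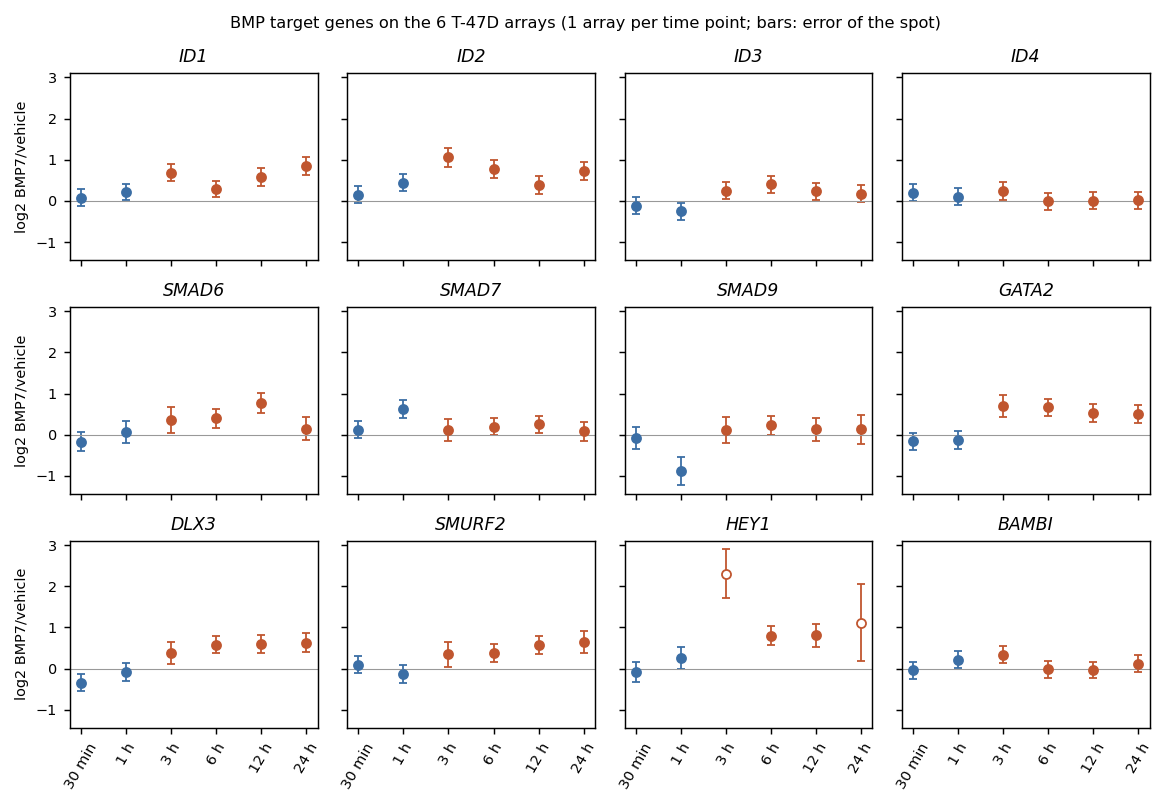
Log2 BMP7/vehicle of 12 BMP target genes on the 6 T-47D arrays, 1 point per array (blue, 30 min and 1 h; orange, 3 h to 24 h; open where a channel was not well above background). Bars show the spot error given by the scanner software. GATA2 and DLX3 separate early from late arrays most clearly, with late values of 0.50 to 0.70 and 0.37 to 0.63.

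GATA2 (probe at chr3:129682136-129682195, hg18), a zinc finger factor of blood and endothelial development, had the clearest separation among the targets. It stood at -0.15 and -0.13 early and at 0.70, 0.66, 0.54 and 0.50 late. The late arrays lay far above the early ones and close together (change 0.74, SE 0.15, limma adjusted p = 0.214). The second GATA2 probe gave -0.26 and -0.11 early and 0.26, 0.62, 1.02 and 1.03 late, a change of 0.92. GATA2 was the only one of the 31 targets that passed with the spread shared over 30 arrays (limma adjusted p = 0.0415), and its late values lay above the early ones under all 4 scalings. Its change without the 3 h and 24 h arrays was 0.74.

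DLX3, a homeodomain factor of epidermis and bone, gave -0.34 and -0.08 early and 0.37, 0.58, 0.60 and 0.63 late (change 0.75, SE 0.16, limma adjusted p = 0.220). The groups were apart, but a second DLX3 probe gave a change of 0.05 with overlap. SMURF2, a ubiquitin ligase that degrades SMADs and receptors, gave 0.10 and -0.12 early and 0.35, 0.38, 0.57 and 0.64 late, highest at 24 h (change 0.50, SE 0.16). GATA3, the luminal master factor, was at -0.12 and 0.21 early and at 0.22, 0.39, 0.34 and 0.43 late, barely apart (change 0.30, SE 0.16). For DLX3, SMURF2 and GATA3 alike, 3 h was the lowest of the late arrays. With loess the changes of DLX3, SMURF2 and SMAD9 were 0.33, 0.25 and 0.26, still without overlap. HES1 had 3 probes that disagreed, with changes of -0.04, -0.31 and -0.48, and ATOH8 did not pass the filter.

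HEY1, a repressor induced by BMP and by Notch, gave -0.09 and 0.26 early and 2.30, 0.80, 0.81 and 1.11 late (change 1.17, SE 0.39, limma adjusted p = 0.368). Its spots were not well above background at 3 h and 24 h, and its highest value was the one at 3 h. With local background correction and loess the change was 0.17 with overlap. At 6 h and 12 h alone it was 0.72 above the early mean.

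Among lists with at least 10 measured genes, Notch genes gave the largest share with late values above early ones. Of 15 measured, 5 lay above (NOTCH1, JAG2, HES6, HEY1 and RFNG) and none below, and their median change was 0.05. These counts were 4 and none with loess (all genes, 14.0% and 11.6%) and 2 and none with median scaling (5.97% and 2.11%). Without 3 h and 24 h they were 8 and 2 of 15, beside 30.2% and 29.3% of all probes. NOTCH1, the receptor, stood at -0.05 and -0.06 early and at 0.41, 0.78, 0.93 and 1.37 late, each late array higher than the one before (change 0.93, SE 0.24, limma adjusted p = 0.282). NOTCH1 was not well above background at 3 h and 24 h and gave 0.25 with loess. The ligand JAG2 gave -0.02 and -0.41 early and 0.10, 0.43, 0.59 and 0.63 late, with the same order of times (change 0.65, SE 0.20). Its spots were above background on all 6 arrays and it gave 0.64 with loess. HES6 gave -0.56 and -0.71 early and -0.29, -0.11, 0.04 and -0.10 late, so its early values were low and its late values closer to 0 (change 0.52, SE 0.16). RFNG, a glycosyltransferase that modifies Notch, gave a change of 0.48 (SE 0.20), and its 24 h value of 0.46 was its highest. Other members were lower late without separation, such as RBPJ, the DNA-binding factor of the pathway (-0.29).

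BMP receptors had more late values below than above the early ones. Of 11 receptors and co-receptors, none lay wholly above and 3 wholly below, with a median change of -0.18. With loess the counts were 1 and 3 (all genes, 14.0% and 11.6%) and with median scaling 1 and 1 (5.97% and 2.11%). The list median stayed negative under all 4 scalings, at -0.16 with median scaling, where the median of all genes was -0.05. The type I receptor BMPR1A gave 0.20 and 0.46 early and 0.07, -0.09, -0.13 and -0.17 late (change -0.41, SE 0.16, limma adjusted p = 0.416). ACVR1, another type I receptor, gave 0.11 and 0.55 early and -0.33, -0.03, 0.05 and 0.01 late (-0.40), and the co-receptor RGMA gave -0.24 between the same groups. BMPR2, the type II receptor, gave values of 0.03 to 0.39 with a change of -0.06. Of 14 SMAD transducers and cofactors, 2 lay above (SMAD6 and SMAD9) and 2 below (SMAD4 and PPM1A).

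SMAD4, the shared partner of all receptor-activated SMADs, gave 0.33 and 0.46 early and 0.15, -0.32, -0.31 and -0.40 late (change -0.61, SE 0.19, limma adjusted p = 0.348). All late values lay below the early ones under all 4 scalings. PPM1A, a phosphatase of SMADs, gave 0.30 and 0.39 early and between -0.13 and 0.09 late (-0.36). SMAD1 was at 0.58 at 3 h and at -1.01 at 24 h, the widest range of the transducers, with a change of 0.02. SMAD5 gave -0.09 and 0.13 early and 0.22, -0.24, -0.42 and -0.48 late. Among 8 extracellular antagonists and modulators, 3 lay above and none below: NBL1 (change 0.46), CHRD, which encodes chordin (0.29), and BMP1, a protease that cleaves chordin (0.21). The count above was 2 with loess, where BMP1 overlapped, and 1 with median scaling, where all 3 of these genes overlapped. Among 11 ligands, BMP8A gave -1.34 and -1.62 early and -0.06, -0.61 and 0.56 at 3 h, 12 h and 24 h, with no value at 6 h, and passed with the shared spread (change 1.44, limma adjusted p = 0.0231). At 12 h alone BMP8A was 0.87 above its early mean. Its vehicle level was 1.70 higher at 3 h and 24 h than at 30 min, 6 h and 12 h. The endogenous BMP7 transcript had a change of 0.02.

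**Figure D3:**
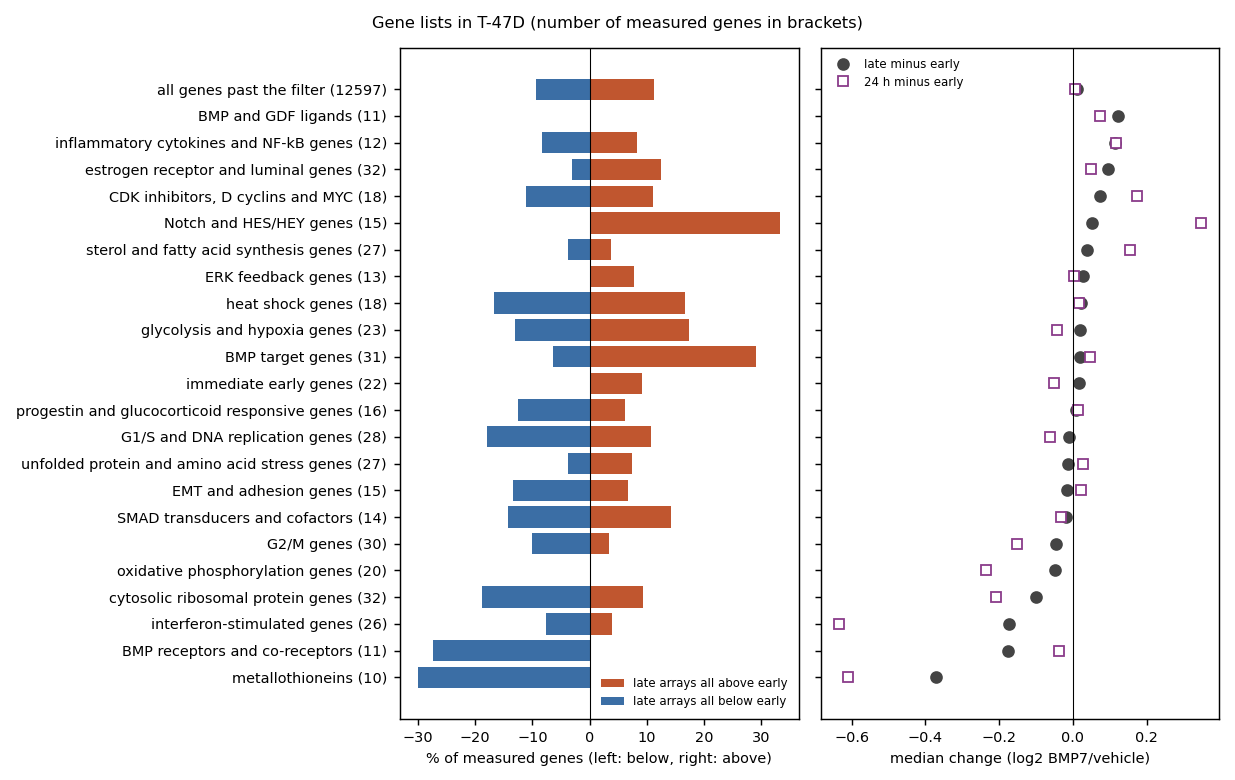
Gene lists in T-47D. Left, share of each list's measured genes whose 4 late values all lay above (orange) or below (blue) both early values; right, median change of late minus early (dots) and of 24 h minus early (squares) in log2 BMP7/vehicle. All genes gave 11.3% above and 9.37% below with a median of 0.01; Notch and BMP target genes lie to the right of this on the left panel and metallothioneins and receptors to the left.

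The changes of largest size belonged to genes that started low. The 10 named genes with the largest late minus early change were NEUROG3 (2.28), SYN1 (1.82), CKB (1.79), CYP4F2 (1.68), CXCR3 (1.67), ZNF575 (1.66), CNIH2 (1.63), GPR20 (1.62), LCE5A (1.59) and CDH24 (1.54). NEUROG3, a factor of endocrine pancreas development, gave -1.57 and -2.32 early and 0.35, -0.17, -0.01 and 1.15 late (SE 0.36, limma adjusted p = 0.214, shared spread 0.0142). Its early arrays were far below the late ones, and 6 h and 12 h stood near 0. CKB, the brain creatine kinase, followed the same order with -1.32 and -1.81 early and 0.22, -0.35, 0.00 and 1.01 late. At 6 h and 12 h alone the changes of the 10 genes were 1.0 (ZNF575) to 1.86 (NEUROG3), and without the 1 h array SYN1 gave 1.19. These changes were not particular to T-47D. In ZR-75-30, SYN1 (1.774) and CNIH2 (1.295) changed less, and the rest of the 10 changed more, from 1.855 (CDH24) to 2.495 (NEUROG3). In HCC1954, MDA-MB-231 and MDA-MB-361 the changes of the 10 genes ran from -0.01 (CYP4F2) to 0.77 (CXCR3).

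The vehicle levels of these 10 genes were 0.86 to 2.0 higher at 3 h and 24 h than at 30 min, 6 h and 12 h. For NEUROG3 the vehicle level was 1.58, 1.97, 2.63, 1.1, 0.65 and 1.74 in order of time, and the level with BMP7 was 0.00, -0.33, 2.99, 0.94, 0.63 and 2.86. BMP7-treated cells were thus lower than their vehicle controls in the first hour and close to them at 6 h and 12 h. Across all genes, 10.8% had vehicle levels more than 1 higher at 3 h and 24 h, against 19.1% of genes with late values above early ones, 3.48% of those below and 53.2% of those at least 2-fold higher at 24 h than early. Across probes, the log2 ratio correlated with this vehicle difference at r = -0.293 at 30 min, -0.66 at 1 h and -0.398 at 3 h. At 6 h, 12 h and 24 h the correlations were -0.123, -0.101 and -0.399. The 1 h vehicle level was not part of this difference. The late minus early change correlated with the difference at 0.268. The part of these vehicle levels in the changes was not tested.

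The probes called with the shared spread were chosen by the late minus early change, so a gap between early and late values was built in. The 253 called higher, NEUROG3 and CKB among them, had medians of -0.90 and -1.36 at 30 min and 1 h and of 0.02, -0.18, -0.07 and 0.36 afterwards. Of these, 132 had vehicle levels more than 1 higher at 3 h and 24 h. The 97 called lower had medians of 0.28 and 0.56 early and of -0.18, -0.29, -0.35 and -0.43 late, and none had such vehicle levels, while 21 had vehicle levels more than 1 lower. The glycolytic enzyme ALDOA gave -0.86 and -1.35 early and 0.09, -0.64, -0.31 and 0.75 late, a change of 1.08 with a vehicle level 2.25 higher at 3 h and 24 h. MYCN (1.03) and the immediate early gene IER5 (1.19) were likewise lowest at 1 h and highest at 24 h. At 6 h and 12 h alone the changes were 0.63 for ALDOA, 0.64 for MYCN and 0.69 for IER5. In contrast, PFKFB4, a regulator of glycolysis, gave -0.58 and -0.46 early and 0.07, 0.18, 0.19 and 0.18 late, with a vehicle level that differed by 0.13 (change 0.68, shared spread limma adjusted p = 0.0231).

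**Figure D4:**
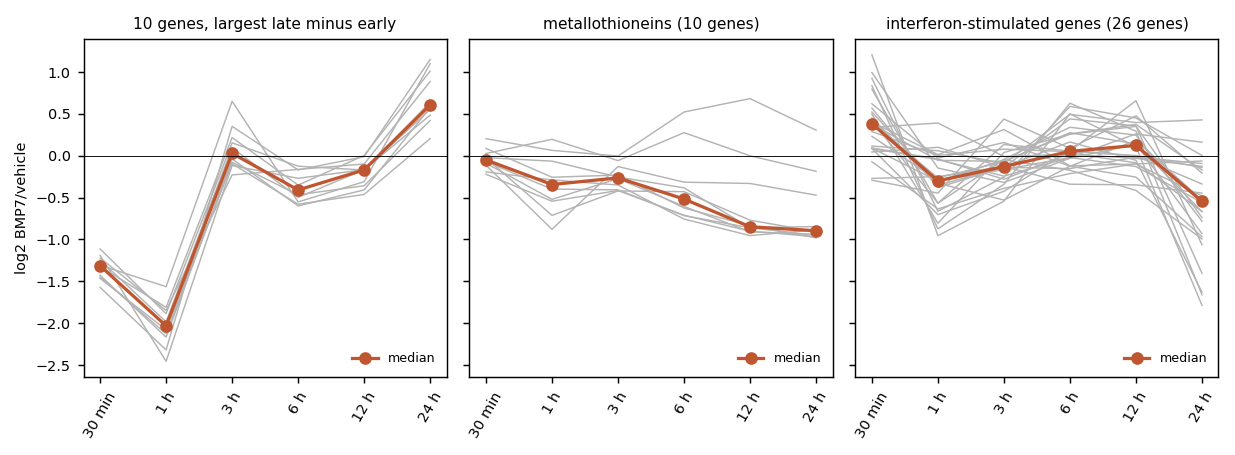
Log2 BMP7/vehicle of 3 gene groups over the 6 T-47D arrays, 1 grey line per gene and the group median in orange. The 10 genes with the largest change start at -1.11 to -2.46 in the first hour, the metallothioneins reach a median of -0.90 at 24 h, and the interferon-stimulated genes have medians of 0.38 at 30 min and -0.54 at 24 h.

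Several genes were named after their values were seen, with a mean vehicle level at 3 h and 24 h within 0.5 of that at 30 min, 6 h and 12 h. AKT1, a kinase of growth and survival signalling, gave -0.55 and -0.93 early and -0.42, 0.11, 0.30 and 0.69 late (change 0.91, SE 0.28). HTT, which encodes huntingtin, gave -0.36 and -0.38 early and -0.14, 0.56, 0.74 and 0.69 late (0.83, shared spread limma adjusted p = 0.0267). ARF6, a small GTPase of membrane traffic, gave 0.11 and -0.29 early and 0.11, 0.76, 0.93 and 1.08 late (0.81). For all 3 the 3 h array stood closest to the early ones and 6 h to 24 h stood together. STAT5B, a mediator of prolactin and growth hormone signals, gave a change of 0.84, or 0.465 with loess. On the lower side NHEJ1, a DNA repair factor, gave a change of -0.84 (-0.458 with loess), LYPLA1, a depalmitoylating enzyme, one of -0.79 and the ribosomal protein gene RPL37 one of -0.78. NHEJ1 stood at 1.08 at 30 min but at 0.10 at 1 h, so its early mean leaned on the 30 min array. RPL37 stood at 0.10 and 0.84, so its early mean leaned on the 1 h array.

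Lower late values of largest size were found for TAS2R19 (-1.43), ROBO2 (-1.26), LMX1A (-1.16), HHEX (-1.15), SACM1L (-1.13), GLDC (-1.12), CEP112 (-1.02), TSPAN32 (-1.01), DDX60 (-0.98) and HOXB13 (-0.98). ROBO2, an axon guidance receptor, gave 0.49 and 1.36 early and -0.18, -0.49, -0.39 and -0.29 late (SE 0.24, limma adjusted p = 0.214, shared spread 0.0143). Its late values lay close together and far below 1 h. GLDC, the glycine cleavage enzyme, gave 0.23 and 1.26 early and -0.40, -0.25, -0.49 and -0.34 late. Of these 10 genes, TAS2R19, ROBO2, HHEX, CEP112, TSPAN32 and DDX60 were not well above background on 1 or 2 arrays, and HHEX gave -0.24 with overlap under loess. Loess gave -0.55 for TAS2R19, -0.29 for CEP112, -0.45 for TSPAN32, -0.36 for DDX60 and -0.515 for HOXB13. Without the 1 h array the change was -0.82 for ROBO2, -0.48 for SACM1L, -0.60 for GLDC, -0.62 for TSPAN32 and -0.63 for HOXB13. LMX1A, at 1.90 on the 30 min array, gave -0.27 with loess and -0.33 without that array. Without the 24 h array DDX60 gave -0.64, and at 6 h and 12 h alone HHEX gave -0.72 and DDX60 -0.60.

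At 24 h, 2.24% of genes were at least 2-fold above and 0.916% at least 2-fold below their early mean. NEUROG3, CKB and ZNF575, listed above, were 3.10, 2.58 and 2.53 above their early means at 24 h. Outside the genes listed above for the largest late changes, the highest was CTNNB1 (probe at chr3:41256753-41256812, hg18), which encodes beta-catenin. It gave 0.38, -0.06, 0.18, 0.96, 1.87 and 2.63 in order of time, so that each array from 3 h onward was higher than the one before and its 24 h value was 2.47 above the early mean (SE 0.57, limma adjusted p = 0.138). Its vehicle level went from 3.59 and 3.96 in the first hour to 2.36, 2.82, 2.03 and 1.91, and its level with BMP7 was 3.96, 3.92, 2.54, 3.79, 3.89 and 4.52. Loess gave 2.37 and median scaling 1.88 for the 24 h change of CTNNB1. Outside the same lists, TBC1D8B (2.46), SPPL2B (2.26), PRR7 (2.21) and NPAS3 (2.17) followed. TBC1D8B, not well above background at 3 h and 24 h, gave 0.26 with loess. Outside those lists, the lowest at 24 h were TMEM45A (-2.27), TJAP1 (-2.11), TAF5L (-1.93), IFIT1 (-1.91) and NEDD9 (-1.87). DDX60 and HHEX, listed above, gave -2.02 and -1.88 at 24 h. TMEM45A, TJAP1 and NEDD9 were not well above background at 24 h and gave -0.39, -0.55 and -0.34 with loess.

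Metallothioneins, which bind zinc and copper, had the lowest median late against early change of the lists (-0.37), although with median scaling the cytosolic ribosomal protein genes were lower (-0.49). At 24 h their median was -0.61, beside -0.64 for the interferon-stimulated genes. Of 10 measured, none lay wholly above and 3 wholly below the early values (MT1H, MT1L and MT1X), and 8 had a negative change. The count below was 1 with loess (11.6% of all genes) and none with median scaling (2.11%), and without 3 h and 24 h it was 6 of 10, beside 29.3% of all probes. MT1X gave -0.07 and -0.40 early and -0.41, -0.71, -0.86 and -0.95 late, lower at each later time (change -0.50, SE 0.20, limma adjusted p = 0.425). MT1E gave 0.09 and -0.26 early and -0.23, -0.62, -0.84 and -0.98 late, with overlap at 3 h (-0.58, SE 0.23). MT2A was lowest at 1 h (-0.88) and MT3 was at 0.68 at 12 h, so members of the family differed. The vehicle level of MT1X was -0.15, 0.00, 2.44, 1.39, 2.0 and 1.46 in order of time, and with BMP7 it was -0.23, -0.38, 2.04, 0.68, 1.13 and 0.48. Its transcripts thus stood higher from 3 h on in both channels, by less with BMP7. The list median was negative under all 4 scalings. MT1 genes are near copies of each other and their probes may share signal.

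Interferon-stimulated genes swung between arrays. Their medians were 0.38, -0.30, -0.13, 0.05, 0.12 and -0.54 in order of time. Of 26 measured, 1 lay wholly above and 2 wholly below the early values, and 6 were at least 2-fold lower at 24 h than early, beside 0.916% of all genes. IFIT1, an inhibitor of viral translation, gave 1.21, -0.96, -0.54, 0.50, 0.11 and -1.79. ISG15, a ubiquitin-like modifier, gave 0.45, -0.35, -0.13, 0.16, -0.05 and -1.63. The vehicle level of IFIT1 was 1.08 at 1 h and 1.55 at 24 h and between -0.46 and -0.08 elsewhere, while its level with BMP7 lay between -0.92 and 0.84. OAS1, IFIT3 and IFI44 were not well above background at 3 h and 24 h, and their 24 h changes of -1.64, -1.50 and -1.35 were -0.24, -0.20 and -0.49 with loess. IFIT1 (-1.67) and ISG15 (-1.33) remained past 2-fold at 24 h with loess, but the IFIT1 change of -1.91 was -0.83 without the 30 min array.

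Luminal genes gave 4 of 32 above and 1 below. IGFBP5, a secreted binding protein of insulin-like growth factors, gave -0.05 and 0.15 early and 0.40, 0.47, 0.57 and 1.18 late, highest at 24 h (change 0.61, SE 0.23, shared spread limma adjusted p = 0.0431). The change was 0.62 for IGFBP4, 0.12 for ESR1, the estrogen receptor, and -0.21 for TFF3, a secreted peptide of estrogen-responsive cells. KRT19 had the lowest change of the list (-0.54, with overlap). Loess gave -0.63 for KRT19, with overlap, and median scaling -1.0 without overlap. Cell cycle genes did not move together. Of 28 genes of G1/S and DNA replication 3 lay above and 5 below, and of 30 G2/M genes 1 above (CDC25B) and 3 below (BUB1, KIF2C and DLGAP5). CCND3, a D cyclin, gave -0.37 and -0.25 early and 0.25, 0.26, 0.18 and 0.44 late (0.59, SE 0.15), and CDK4, its kinase partner, gave -0.34. FEN1, a nuclease of DNA replication, gave a change of 0.48 and CCNE2 one of -0.43.

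Stress and metabolic genes were likewise mixed. Of 18 heat shock genes 3 lay above and 3 below, with DNAJB1 at 0.57 and DNAJB4 at -0.42. Of 23 glycolysis and hypoxia genes 4 lay above (PFKFB4, ALDOA, ENO1 and ENO2) and 3 below (BNIP3, P4HA1 and TPI1). FASN, fatty acid synthase, gave -0.45 and -0.54 early and -0.43, 0.19, 0.14 and 0.37 late (0.56, SE 0.22). Of 32 cytosolic ribosomal protein genes 3 lay above and 6 below. With loess 1 of 31 lay above and 9 below (all genes, 14.0% and 11.6%), with a median change of -0.21. With median scaling none lay above and 1 below (5.97% and 2.11%). Without 3 h and 24 h 7 of 31 lay above and 11 below, beside 30.2% and 29.3% of all probes. None of 20 oxidative phosphorylation genes lay wholly above or below, with a median change of -0.05 and of -0.23 at 24 h. Their median was 0.32 at 3 h and -0.16, -0.24 and -0.40 at 6 h, 12 h and 24 h, and without 3 h and 24 h none lay above and 10 of 20 below, beside 29.3% of all probes. Among EMT and adhesion genes the tight junction genes OCLN (-0.55) and TJP1 (-0.28) lay below and KRT7 (0.37) above. Of 22 immediate early genes, EGR1 and IER5 lay above and none below.

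Other stress, lipid, hormone and signalling lists held few genes whose groups did not overlap. Of 27 genes of the unfolded protein and amino acid stress responses, SESN2, a stress-induced inhibitor of mTORC1, and the amino acid transporter SLC7A5 lay above (0.47 and 0.31) and PSAT1, an enzyme of serine synthesis, below (-0.33). Of 27 sterol and fatty acid synthesis genes, FASN lay above and CYP51A1 below (-0.18). Of 16 progestin and glucocorticoid responsive genes, the clock gene PER1 lay above (0.48) and MT1X and TXNIP below. Of 12 inflammatory and NF-kB genes, NFKBIA lay above (0.20) and NFKB1 below (-0.29). Of 13 ERK feedback genes, the phosphatase DUSP2 lay above (0.51) and none below. Of 18 CDK inhibitors, D cyclins and MYC genes, CCND3 and MYCN lay above and CDK4 and RBL1 below. Of markers of other cells past the filter, 1 of 2 fibroblast genes lay above, 1 of 5 leukocyte genes below and none of 5 basal or mesenchymal genes either way.

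The last comparison asked whether the late change in T-47D differed from the mean of the same change in the other 4 lines. No probe passed (limma, 0% called), with 1359 at an unadjusted p under 0.05, 3.06% upward and 2.51% downward. Without the 30 min array 10 probes passed, without the 1 h array 8, without the 3 h array 6 and without MDA-MB-361 1. With the arrays of the 5 lines paired by time point, as a block, none passed either (1439 at an unadjusted p under 0.05). The change of ID1 was 0.45 in T-47D and 1.04, 1.21, 1.22 and 0.32 in HCC1954, MDA-MB-231, MDA-MB-361 and ZR-75-30. T-47D and ZR-75-30 were the low lines, but the difference from the mean of the others (-0.49) had a 95% interval of -1.33 to 0.34 (limma adjusted p = 0.940).

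For ID2 the change of 0.44 in T-47D was the lowest of the 5, beside 0.87 to 1.41 elsewhere (difference -0.63, interval -1.23 to -0.03). For ID4 it was -0.08 beside -0.29 to 1.09 (difference -0.62, interval -1.18 to -0.06). Neither passed adjustment (limma adjusted p = 0.881 for ID2). ID3 (0.45 beside 0.49 to 1.33) and SMAD6 (0.46 beside 0.35 to 0.70) had intervals of the difference that held 0, -0.97 to 0.18 and -0.55 to 0.38. GATA2 stood at 0.74 beside 0.18, 0.34, 0.38 and 0.90, where only ZR-75-30 was higher (interval of the difference -0.13 to 0.71).

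By unadjusted intervals, genes with larger changes in T-47D than the mean of the other lines included NOTCH1 and HEY1, both dim here as stated. NOTCH1 gave 0.93 beside -0.17 to 0.38 (difference 0.87, interval 0.29 to 1.45). HEY1 gave 1.17 beside -0.02 to 0.47 (difference 0.98, interval 0.07 to 1.89). Genes above background on all 6 arrays were CTNNB1 (1.32, 0.45 to 2.19), ARF6 (0.73, 0.31 to 1.15) and HTT (0.64, 0.21 to 1.08), among others. NEUROG3 was another (1.42, 0.57 to 2.26), although its change was larger still in ZR-75-30 (2.495). MT1X gave -0.50 in T-47D and -0.15 to 0.03 elsewhere (difference -0.44, interval -0.79 to -0.09). These intervals are not adjusted for the number of probes. The lowest adjusted p was that of ROBO2 (limma, 0.0701), whose probe was well above background on none of the 24 arrays of the other lines. MGP, the matrix Gla protein that binds BMPs, gave -0.16 and -0.41 early and 0.37, 0.26, 0.58 and 0.21 late in T-47D (change 0.64) beside a mean of 0.05 elsewhere, and 18 of the 24 other arrays were above background.

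**Figure D5:**
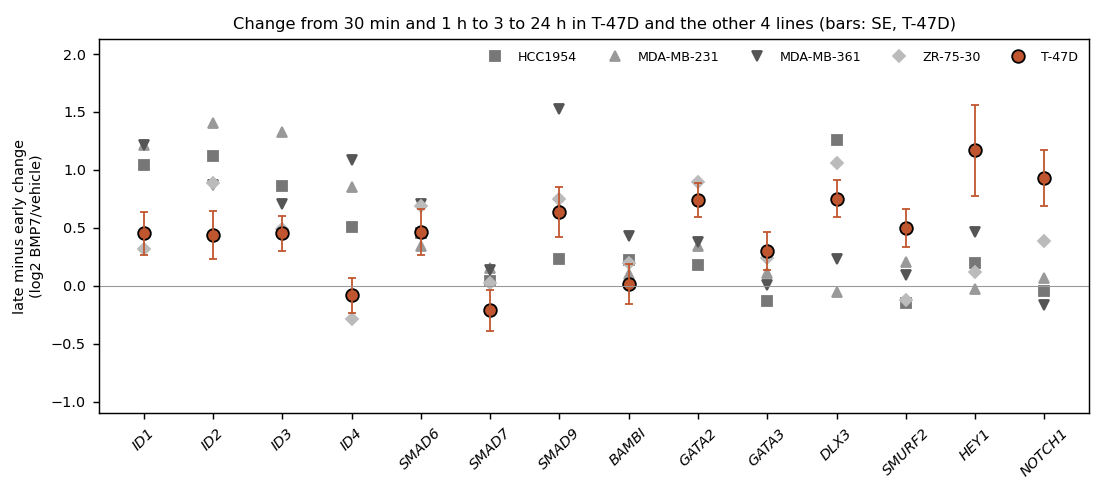
Late minus early change in log2 BMP7/vehicle of 14 genes in T-47D (orange, with SE) and in the other 4 lines (grey symbols). T-47D lies at the lower end for ID1, ID2 and ID4 (0.45, 0.44 and -0.08) and at the upper end for HEY1 and NOTCH1 (1.17 and 0.93).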

How the data were processed

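The study hybridised RNA of BMP7-treated (Cy5) and vehicle-treated cells (Cy3) to 44K human arrays, 1 array for each of 6 times in each of 5 cell lines, with replicate cultures pooled. The authors extracted the data with Agilent Feature Extraction (9.5.1.1 per the file headers), and the deposited log10 ratio is background-corrected and dye-normalized by linear and lowess steps, with surrogate values for signals not above background, which makes ratios of dim spots unsteady. The deposited files also give each spot's intensity, the error of the ratio, a p-value of the ratio and flags. A deposited series table holds log2 ratios centred by the authors. Probe positions in the file headers use hg18.

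Here log10 ratios were turned to log2 after dropping control spots and spots with an outlier flag. Repeated spots gave 1 mean per probe, and a shift to a median of 0 altered nothing, since the median already was 0. Symbols came from accession, gene name or synonym in a RefSeq table, with 27745 of 41000 probes matched. Groups followed the labels. Tests used limma 3.58.1 in R 4.3.3 with Benjamini-Hochberg adjustment over all probes in the fit (threshold 0.05), on the 6 T-47D arrays or, between lines, on all 30. Python 3.11.15, pandas 2.3.3 and matplotlib 3.10.9 made tables and figures. Named genes were the ID, SMAD and related targets and the 10 largest late changes each way without overlap. The 5 largest 24 h changes each way among genes outside those 10 were also named. Fits were tested on simulated data. Members and gene lists were chosen with earlier results of these data known. Alternatives were other background corrections, scalings, filters and the series table, leaving out arrays, and slide as a random block. Loess and median scaling both followed a normexp background correction with an offset of 50. Values given with loess or median scaling thus differ from the main ones by that step too. The number of arrays limits the precision. No list from the study was used.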

Additional observations from a re-analysis of the deposited data

Results flagged for a closer look

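Among 129 genes, 8 had 1 late T-47D array far from the other 3 by Dixon's test, which chance does in about 1 of 20 groups. ID4 stood at 0.25 at 3 h, beside -0.01 to 0.02 on the other late arrays. PFKFB4 stood at 0.074 at 3 h, below 0.18 to 0.19 elsewhere, and NDUFB1, a subunit of complex I, at 0.56 at 3 h beside -0.79 to -0.59. The chemokine gene CXCL1 was at -1.11 at 6 h beside 0.32 to 0.34, and the BMP7 transcript was at -0.24 at 12 h beside 0.05 to 0.10. At 24 h ISG15 was at -1.63 beside -0.13 to 0.16, DDX60, a helicase of antiviral defence, at -1.52 beside -0.22 to -0.09, and CNIH2, a partner of glutamate receptors, at 0.89 beside -0.23 to -0.10. Causes were not tested.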

How the results depend on the processing

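Within T-47D no paired analysis was possible because the early and late arrays share no time. Between lines, pairing the arrays by time point as a replicate block gave 0 calls, as without it, with 1439 against 1359 probes at an unadjusted limma p under 0.05. For late against early, no probe was called on leaving out any 1 array. The count was 2 without the background filter, and with the spread shared over 30 arrays it was 350. With that shared spread it was 165 with slide as a random block, 460 without the 30 min array, 13 without the 1 h array, 2274 without 3 h, 2 without 24 h, 853 without 3 h and 24 h, 432 with normexp and loess, 1 with normexp and median scaling, and 389 with probes above background in every line. For 24 h against early it was 1 with the series table, 1 with outlier spots kept, 714 without the filter, and 0 to 1149 on leaving out 1 array. For 24 h against 3 h to 12 h it was 1 with the series table, 1 with outlier spots kept, 655 without the filter, 38 with the slide block and 0 to 33 on leaving out 1 array. For 3 h to 12 h against early it was 0 to 0. Against the other lines it was 15 without the filter, 1 without MDA-MB-361 and 0 to 10 on leaving out 1 array. The 24 h comparisons have no value without the 24 h array. The share of 2-fold values, 1.58% over 6 arrays, was 0.541% with loess, 2.77% without the filter, 1.05% for probes above background on all 6 arrays and 6.77% by a spot p under 0.01.

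Of 902 values of 40 genes under the alternatives, 793 kept direction and side of the threshold, 94 passed it and 15 of 3 genes reversed. None of these genes passed the threshold in the main fits, so none could lose it, and a kept value can be far smaller. SMAD6, at 0.46 in the main fit and 0.06 with loess, counted as kept. SMAD7 was 0.0359 without the 1 h array, with either spread, in a range of -0.46 to 0.0359 on leaving out 1 array. BAMBI was -0.0733 with loess, -0.298 with median scaling, -0.111 without the 30 min array, -0.061 without 3 h and -0.11 without 3 h and 24 h, again with either spread, in a range of -0.111 to 0.147 on leaving out 1 array. HES1 was 0.103 without 1 h and 0.0154 without 12 h, in a range of -0.174 to 0.103. The cause was not tested. Median scaling moved the median of all genes to -0.23 at 24 h against early, so 24 h changes under it are lower throughout. The shared-spread variants, the time block and the fits leaving out 3 h and 24 h were chosen after seeing the data, except the shared spread itself. With pooled cultures and 1 array per time, the spread between cultures is unknown. Signal near background limits HEY1, NOTCH1 and other dim genes at 3 h and 24 h.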
